A study of Rattus norvegicus with 12 samples.

Results

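Core circadian clock genes were followed in the lungs of rats that had inhaled air or crystalline nanocellulose (CNC), rod-shaped crystals prepared from plant cellulose. The 10 genes (Arntl, Npas2, Clock, Cry1, Per1, Per2, Per3, Nr1d1, Nr1d2 and Dbp) were chosen by symbol, and all 10 were found among the 30045 gene symbols of the deposited count table. All rats were male Fischer 344 (F344/DuCrl) with no genetic change, 3 months old when bought, housed 3 to a cage on 12-hour light and dark periods. The air group of 6 rats breathed air in whole-body chambers, and the CNC group of 6 rats breathed CNC at 20 mg/m3 in such chambers for 6 hours a day on 5 days a week, over 14 days of exposure. RNA was taken from 1 piece of whole lung per rat 1 day after the last exposure, so each library holds all the cell types of that piece, and fewer cells of a type cannot be told apart from less RNA per cell. The hour at which each lung was taken is not given in the sources used here, so an effect of CNC and an effect of the hour of collection cannot be told apart.

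The mammalian clock is a feedback loop of transcription. BMAL1, the product of Arntl, pairs with CLOCK or its relative NPAS2, binds E-boxes in DNA and switches on the Per and Cry genes, Nr1d1 and Nr1d2, and output genes such as Dbp. PER and CRY proteins then block BMAL1, while the nuclear receptors REV-ERB alpha and beta, made by Nr1d1 and Nr1d2, repress Arntl, Npas2, Clock and Cry1 through ROR elements. RNAs of the Arntl side therefore peak at an hour when those of the Dbp side are low. In lung the loop runs in most cell types and is known for gating inflammatory and glucocorticoid responses by time of day. Below, Arntl, Npas2, Clock and Cry1 are called the Arntl side and the other 6 genes the Dbp side.

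Promoter sequences from RefSeq (rat build GRCr8) are shown for the genes whose window held a clock motif and whose levels the results turn on. Each runs 5′ to 3′ on the gene's strand over the 250 bases before a start of transcription, with the matched motif in capitals. The build of the counts differs, so these positions were not used with the counts.
Arntl (chr1:176766078-176766327, + strand, ROR element TAGGTCA): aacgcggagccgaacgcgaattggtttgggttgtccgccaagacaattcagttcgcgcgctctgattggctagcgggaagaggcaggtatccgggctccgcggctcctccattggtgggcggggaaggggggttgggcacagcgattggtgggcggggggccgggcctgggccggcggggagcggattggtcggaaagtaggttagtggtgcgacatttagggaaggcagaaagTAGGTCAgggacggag
Nr1d1 (chr10:84229455-84229704, - strand, E-box CACGTG): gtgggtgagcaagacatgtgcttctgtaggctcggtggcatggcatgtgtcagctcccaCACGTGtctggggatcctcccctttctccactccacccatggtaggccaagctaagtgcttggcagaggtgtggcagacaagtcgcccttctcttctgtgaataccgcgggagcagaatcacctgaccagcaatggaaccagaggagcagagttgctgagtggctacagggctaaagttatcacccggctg
Per2 (chr9:99496994-99497243, - strand, D-box TTANNTAA): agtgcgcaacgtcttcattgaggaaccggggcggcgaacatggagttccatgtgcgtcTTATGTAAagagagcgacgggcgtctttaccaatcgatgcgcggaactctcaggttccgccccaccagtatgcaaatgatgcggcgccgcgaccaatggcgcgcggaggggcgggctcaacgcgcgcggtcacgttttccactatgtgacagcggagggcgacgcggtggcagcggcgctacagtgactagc
Bhlhe41 (chr4:180569356-180569605, - strand, E-box CACGTG): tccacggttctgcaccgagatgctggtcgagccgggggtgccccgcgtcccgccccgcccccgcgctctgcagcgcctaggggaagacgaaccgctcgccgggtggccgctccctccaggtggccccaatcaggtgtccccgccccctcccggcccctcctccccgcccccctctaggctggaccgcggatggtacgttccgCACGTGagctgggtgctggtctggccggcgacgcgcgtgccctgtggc
Ciart (chr2:186112247-186112496, - strand, E-boxes CACGTG): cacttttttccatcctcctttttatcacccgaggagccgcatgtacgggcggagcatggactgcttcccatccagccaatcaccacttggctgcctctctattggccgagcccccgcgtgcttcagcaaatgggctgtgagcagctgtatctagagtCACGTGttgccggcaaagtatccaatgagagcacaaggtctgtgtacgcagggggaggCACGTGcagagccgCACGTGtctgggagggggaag
The Arntl match lies 16 to 10 bases before the start, the Nr1d1 match 191 to 186 bases before the second of its listed starts, and the Per2 match 192 to 185 bases before. Bhlhe41 and Ciart, which encode repressors of BMAL1 and are not among the 10, held 1 and 3 E-boxes. Of the 26 other pathway genes with an entry, 6 held an E-box. These were Bhlhe41, Bhlhe40 and Tef, which rose, Ciart, which fell, and Gsk3b and Sirt1, which did not pass. Bhlhe41 and Ciart are printed as examples that went opposite ways. Of the 10 genes 9 had an entry, with 11 windows, as Clock and Nr1d1 have more than 1 start. Among those 11 windows 1 held the E-box, 1 the ROR element, 1 the D-box and 0 the cyclic AMP response element TGACGTCA, each searched on both strands. Over all 33469 windows of this length the shares were 5.59% for the E-box, 2.26% for the ROR element, 5.32% for the D-box and 1.59% for TGACGTCA, and the motif letters do not overlap one another. A match is a description of the letters in the window, and a window without one says nothing of the factor.

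After CNC the Arntl side was lower and the Dbp side higher. By edgeR's quasi-likelihood test fitted across all 15019 tested genes, calling genes at a Benjamini-Hochberg adjusted p under 0.05, 4 of 4 Arntl-side genes were lower in CNC, where 11.4% of all tested genes were called lower. On the Dbp side 5 of 6 were higher, where 13.2% of all tested genes were called higher. Per1 was the gene that did not pass. In all, 9 of 10 passed against a background of 24.6%, and 7 of the 10 passed with at least a 1.5-fold change, against 3.61%. The genes were chosen with earlier results of these data known, so these counts beside the background are a description. The median size of the log2 fold change was 0.85 over the 10 genes and 0.11 over all tested genes.

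**Figure D1:**
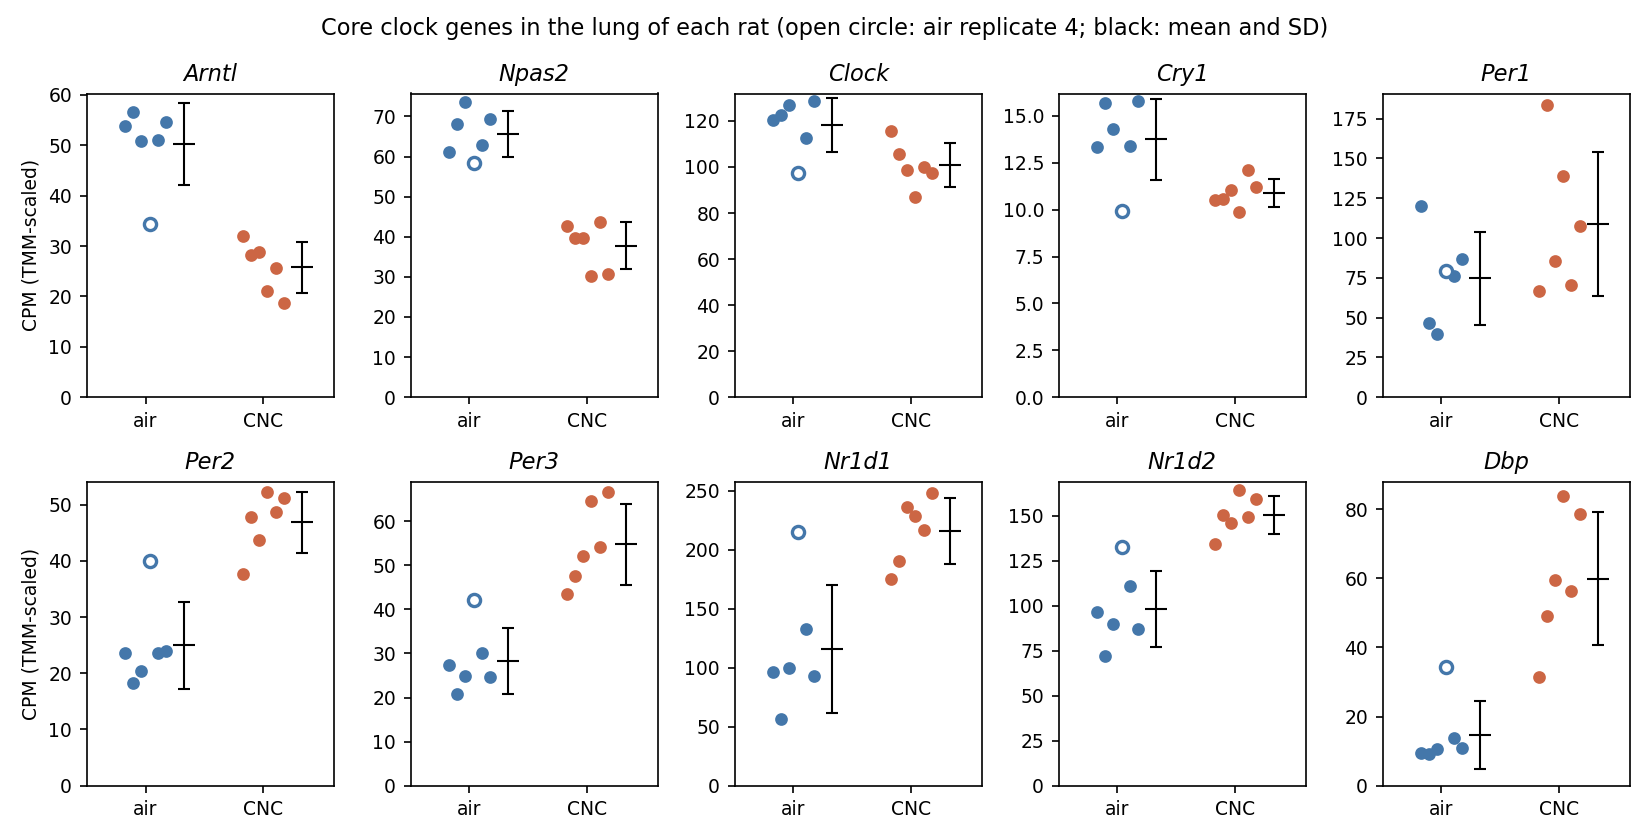
Level of each of the 10 clock genes in each rat, in CPM on a linear axis from 0, with 6 air rats in blue and 6 CNC rats in orange, and the mean and SD of each group in black. Arntl and Npas2 are lower in every CNC rat than in any air rat. Air replicate 4 (open circle) is the air rat nearest the CNC mean for every gene except Per1.

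Of the activators, Arntl encodes the partner that every BMAL1 complex needs. Its level, in CPM (counts scaled by TMM to a common library size), ran from 34.4 through a median of 52.5 to 56.6 in the air rats and from 18.7 through 27.0 to 32.1 in the CNC rats. The lowest air rat lay above the highest CNC rat. The fall was 1.94-fold, with a log2 fold change of -0.96 ± 0.13 (SE, edgeR adjusted p = 6.79e-05).

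Npas2 encodes the partner that can stand in for CLOCK. It ran from 58.4 through 65.5 to 73.6 CPM in air and from 30.2 through 39.6 to 43.6 CPM in CNC, so the groups were far apart. It fell 1.73-fold (log2 fold change -0.79 ± 0.09 SE, edgeR adjusted p = 1.38e-05). Clock itself ran from 97.2 through 121.5 to 128.8 CPM in air and from 86.8 through 99.3 to 115.8 CPM in CNC, and its groups overlapped. It fell 1.17-fold (log2 fold change -0.23 ± 0.07 SE, edgeR adjusted p = 0.0267). The Clock call ended when air replicate 1, 2, 3 or 6 or CNC replicate 4 or 6 was left out in turn (edgeR adjusted p from 0.0517 to 0.0597).

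Cry1, a repressor that REV-ERB proteins in turn repress, was the member with the fewest counts on the Arntl side, 111 to 262 per library. It ran from 9.93 through 13.9 to 15.8 CPM in air and from 9.89 through 10.8 to 12.1 CPM in CNC, with overlap through a single air rat, replicate 4. The fall was 1.26-fold (log2 fold change -0.33 ± 0.10 SE, edgeR adjusted p = 0.0233), and this call ended without air replicate 2, air replicate 6 or CNC replicate 4 (edgeR adjusted p from 0.0516 to 0.0653).

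The falls of the Arntl side were unequal. Per rat, the log2 ratio of Arntl to Clock was -1.24 on average in air and -1.99 in CNC, a change of -0.74 ± 0.11 (SE), with all 6 CNC rats outside the range of the air rats. The 2-sided exact permutation test over the 924 splits of the 12 rats gave p = 0.00216, the smallest it can give, and an adjusted p of 0.00909 over the 21 pairs of genes compared within a side. Npas2 also fell more than Clock (change of the log2 ratio -0.58 ± 0.07 SE, same p and adjusted p by that exact permutation test). For Arntl against Npas2 the change was -0.16 ± 0.11 (SE, exact permutation adjusted p = 0.252), and for Clock against Cry1 it was 0.09 ± 0.08 (SE, exact permutation adjusted p = 0.329), so no difference was resolved within those pairs.

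The period genes encode the repressors that build up after BMAL1 acts. Per2 ran from 18.2 through 23.6 to 40.0 CPM in air and from 37.7 through 48.2 to 52.3 CPM in CNC. A single air rat, replicate 4, lay above the lowest CNC rat. Per2 rose 1.88-fold (log2 fold change 0.91 ± 0.15 SE, edgeR adjusted p = 0.000352). Per3 ran from 20.7 through 26.1 to 42.2 CPM in air and from 43.5 through 53.2 to 66.6 CPM in CNC, with no overlap, and rose 1.93-fold (log2 fold change 0.95 ± 0.15 SE, edgeR adjusted p = 0.000219).

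Per1, which is also switched on directly by glucocorticoid and cyclic AMP signals, varied more between rats than Per2 or Per3. It ran from 39.5 through 77.5 to 119.9 CPM in air and from 66.6 through 96.7 to 183.6 CPM in CNC, and the groups overlapped widely. Its log2 fold change was 0.55 ± 0.27 (SE, edgeR adjusted p = 0.163), and its adjusted p stayed above 0.05 under all 22 alternative settings (0.0603 to 0.394). The highest air rat for Per1 was replicate 1, which was low for Dbp at 9.37 CPM. The change of Per1 relative to Per2 was -0.40 ± 0.30 on the log2 scale (SE, exact permutation adjusted p = 0.294), so Per1 was not shown to differ from Per2 in its response.

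The REV-ERB genes encode the repressors of Arntl. Nr1d1 ran from 56.5 through 98.4 to 214.7 CPM in air and from 174.8 through 222.7 to 247.9 CPM in CNC. Of the air rats only replicate 4 reached the CNC range. Nr1d1 rose 1.87-fold (log2 fold change 0.90 ± 0.22 SE, edgeR adjusted p = 0.00748). Nr1d2 ran from 72.1 through 93.3 to 132.8 CPM in air and from 134.1 through 149.8 to 164.2 CPM in CNC, which just did not overlap, and rose 1.53-fold (log2 fold change 0.62 ± 0.11 SE, edgeR adjusted p = 0.000655).

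Nr1d1 shares its 3′ end with Thra, the thyroid hormone receptor alpha gene, which RefSeq places over 1061 of its bases. Thra fell, from 179 ± 8.35 to 128.5 ± 5.08 CPM (SD, n = 6 per group), with a log2 fold change of -0.48 ± 0.04 (SE, edgeR adjusted p = 7.07e-07). The libraries mark strand, but the strand setting of the counting is not given in the sources used here. Reads from the shared stretch may therefore be assigned to either gene. RefSeq also places uncharacterised genes over Npas2, Clock, Cry1 and Per2, and reads shared with those are uncertain in the same way.

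Dbp encodes an output factor that binds D-boxes and carries the rhythm to downstream genes. It had the largest fold change of the 10 genes. It ran from 9.29 through 10.6 to 34.2 CPM in air and from 31.6 through 57.9 to 83.9 CPM in CNC. All 5 other air rats lay at or below 13.9 CPM, and air replicate 4 lay above CNC replicate 1. Dbp rose 4.06-fold (log2 fold change 2.02 ± 0.31 SE, edgeR adjusted p = 0.000194). Without air replicate 4 the log2 fold change was 2.49. Dbp rose more than each of the other 5 Dbp-side genes. The change of the log2 ratio of Nr1d1 to Dbp, the smallest of these, was -1.13 ± 0.20 (SE), and all 5 ratios had an exact permutation adjusted p of 0.00909.

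**Figure D2:**
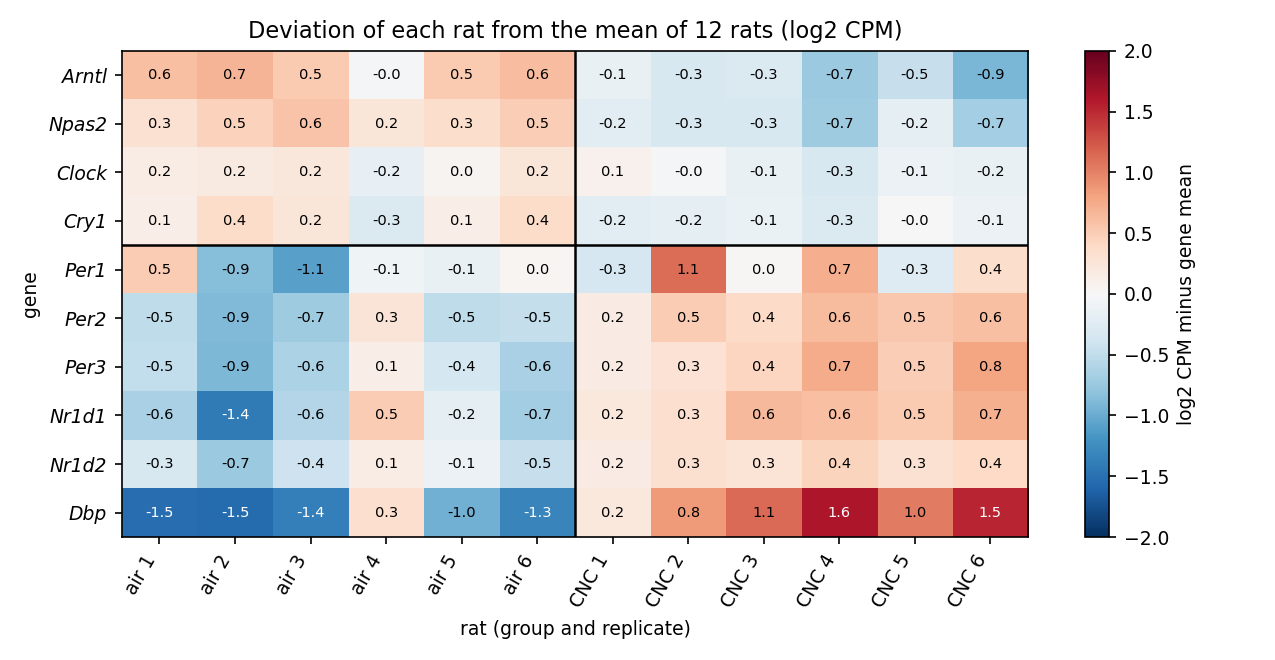
Deviation of log2 CPM from the mean of the 12 rats, for the 10 genes (rows) and the 12 rats (columns), with lines between the groups and between the Arntl and Dbp sides. Air rats except replicate 4 are high on the Arntl side and low on the Dbp side but for Per1, which is above its mean in air replicates 1 and 6, and CNC replicates 4 and 6 show the opposite pattern most strongly.

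Each rat was then placed by its own balance of the sides. The phase difference of a rat was the mean log2 deviation of the 4 Arntl-side genes minus that of the 6 Dbp-side genes, each taken from the mean of the 12 rats. It is a description and was not tested. The air rats had 0.79, 1.47, 1.19, -0.27, 0.64 and 1.03 (replicates 1 to 6), and the CNC rats had -0.22, -0.79, -0.70, -1.31, -0.63 and -1.20. Air replicate 4 thus lay just below CNC replicate 1, the highest CNC rat, and the other 5 air rats lay above every CNC rat. The group means were 0.81 ± 0.60 in air and -0.81 ± 0.40 in CNC (SD, n = 6 per group).

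The ratio of Arntl to Dbp counts, which cancels library scaling, was 5.75, 6.10, 4.84, 1.01, 3.68 and 5.06 in the air rats and 1.02, 0.575, 0.485, 0.251, 0.458 and 0.238 in the CNC rats, in replicate order. Gene length does not cancel in this ratio, so it places the rats against each other and says nothing of which RNA was the more abundant. Air replicate 4 and CNC replicate 1 nearly met, and the other 5 air rats lay above every CNC rat. Air replicate 4 was nearer to the CNC mean than to the air mean for 7 of the 10 genes, the exceptions being Npas2, Per1 and Dbp.

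**Figure D3:**
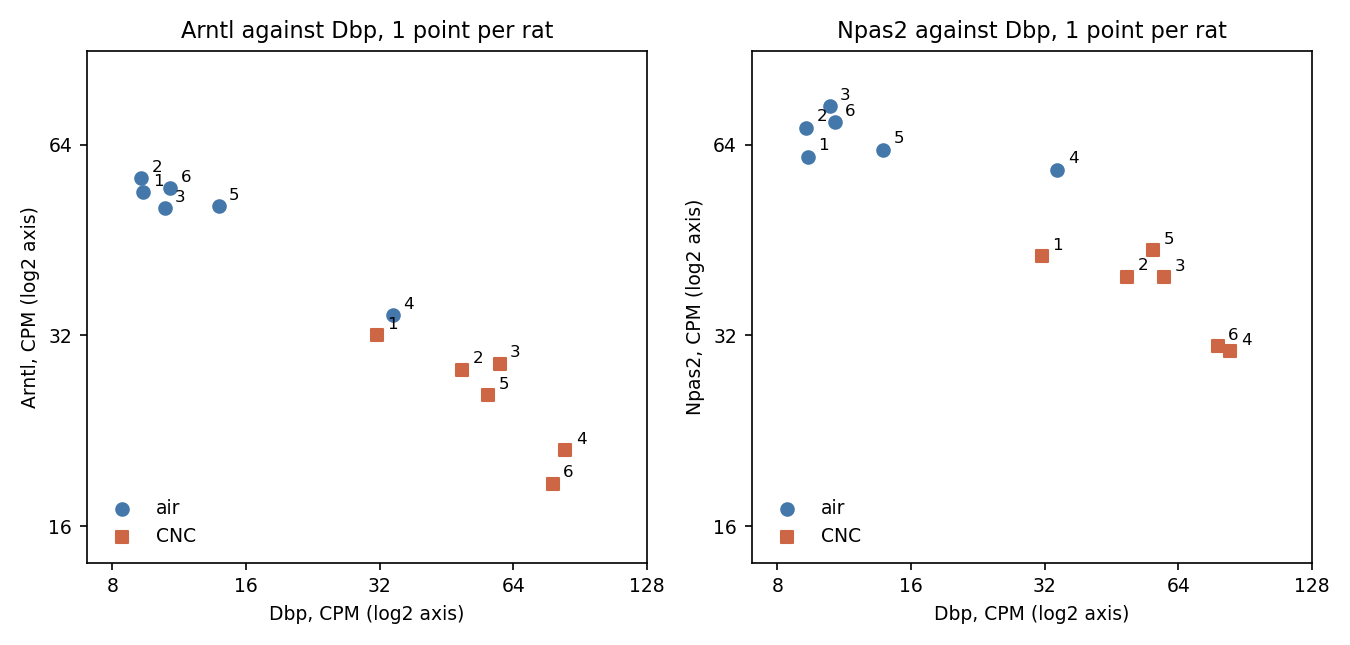
Arntl (left) and Npas2 (right) against Dbp in each rat, in CPM on log2 axes, with circles for air, squares for CNC and the replicate number beside each point. Air replicate 4 and CNC replicate 1 lie together for Arntl and Dbp, at 34.4 and 32.1 CPM of Arntl, while for Npas2 they are at 58.4 and 42.6 CPM.

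At a like level of Dbp these same 2 rats differed in other genes. Air replicate 4 had 34.2 CPM of Dbp, 40.0 of Per2 and 42.2 of Per3, and CNC replicate 1 had 31.6, 37.7 and 43.5 CPM. Npas2 was 58.4 CPM in the air rat and 42.6 in the CNC rat, and Bhlhe41, described below, was 31.9 and 70.2 CPM. Npas2 and Bhlhe41 thus differed in the direction of the groups, while other genes differed against it. Clock was 97.2 CPM in the air rat and 115.8 in the CNC rat, and Nr1d1 was 214.7 and 174.8 CPM. With 1 rat on each side, chosen after their values were seen, this has no replicate check.

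Air replicate 4 also stood apart in tissue content. Heart muscle markers (5 of 5 in the table, none of which passed the test) summed to 371 CPM in this rat, and to between 9.80 and 278 CPM in the other air rats and between 10.2 and 108 CPM in the CNC rats. Adipocyte markers (4 of 4 in the table, 1 of them tested and not passing) summed to 7.94 CPM in it, with 3.90 CPM of Adipoq, against at most 2.45 CPM in any other rat. The part of this tissue in the clock values of that rat was not tested. Without air replicate 4, 9 of 10 clock genes passed, where 3722 genes of the whole table did (3691, or 24.6%, with all 12 rats). The groups then did not overlap in 8 of 10 genes (14% of all tested genes), a description only, since that rat was singled out for lying near the CNC rats in these genes. With all 12 rats the groups did not overlap in 4 of 10 against 11.5%. These were Arntl and Npas2, lower as were 4.7% of all tested genes, and Per3 and Nr1d2, higher as were 6.82%. Without air replicates 4 and 5, those with the highest heart muscle sums, 9 of 10 passed too, a setting chosen after seeing the data. Over the 22 alternative settings, that one among them, 2146 to 3834 genes of the whole table passed.

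Markers of several cell types also moved with the groups, where a change in cell number cannot be told apart from a change in RNA per cell. The lung label held, with markers of surfactant-making, club and type 1 cells (5 of 5 in the table) summing to 25857 to 32412 CPM in air and 31038 to 37102 CPM in CNC. Type 2 cell markers ran from 19436 to 25754 CPM in air and from 26260 to 32334 CPM in CNC (4 of 5 rose), and neutrophil markers from 131 to 224 and from 316 to 537 CPM (3 of 5 rose). Macrophage markers ran from 314 to 392 CPM in air and from 414 to 643 CPM in CNC (3 of 4 tested rose), with Marco at 0 counts in all libraries. Endothelial markers ran from 2925 to 3356 CPM in air and from 2427 to 2680 CPM in CNC (5 of 5 fell), with fibroblast markers at 836 to 1081 and 689 to 775 CPM (3 of 4 tested fell). Red cell markers ran from 1302 to 1846 CPM in air and from 900 to 1222 CPM in CNC (3 of 3 fell), and type 1 cell markers overlapped, at 3753 to 4881 and 3586 to 3865 CPM (3 of 5 fell). Over all tested genes 13.2% were called higher and 11.4% lower. The part of cell content in the clock gene changes was not tested.

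Relations of Arntl with the other 9 genes were read within each group, from rat to rat. Over the 6 CNC rats, Arntl and Per3 had Pearson's r = -0.96 (exact permutation p = 0.00278, adjusted p = 0.0375 over 18 relations) and Spearman's rho = -0.94 (exact permutation p = 0.0167, adjusted p = 0.10). Leaving out the 2 CNC rats farthest from the median of Arntl gave r = -0.87. Arntl and Dbp had r = -0.88 in CNC (exact permutation p = 0.0236, adjusted p = 0.0531) and rho = -0.77 (exact permutation p = 0.103, adjusted p = 0.231), with r = -0.81 without those 2 rats.

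Over the 6 air rats Arntl and Nr1d1 had r = -0.88 (exact permutation p = 0.00417, adjusted p = 0.0375) and rho = -0.94 (exact permutation p = 0.0167, adjusted p = 0.10), with r = -0.65 without the 2 farthest rats. Arntl and Per2 had r = -0.93 in air (exact permutation p = 0.0514, adjusted p = 0.0771) and rho = -0.49 (exact permutation p = 0.356, adjusted p = 0.427), but r = 0.67 without the 2 farthest rats, so that relation rests on those rats. With all 6 rats the Dbp-side genes had r with Arntl from -0.98 to -0.12 in air and from -0.96 to -0.34 in CNC, and the other Arntl-side genes from 0.61 to 0.94 in air and from 0.01 to 0.87 in CNC. Without the 2 farthest rats the sign of r also turned for Npas2 (-0.22) and Per1 (0.75) in air and for Npas2 (-0.16) and Cry1 (-0.84) in CNC. Leaving out the rats farthest in Arntl narrows its range and leaves few rats, so these values without them are a description. By the Pearson test 2 of the 18 relations passed after adjustment, and by Spearman's rho the smallest adjusted p was 0.10. With scaling by DESeq2 size factors, by the upper quartile or by library size alone, 0 of 18 passed by the Pearson test.

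Genes of the wider pathway were read from a list of 34 others, of which 29 were tested. Of these 5 were higher and 3 lower in CNC, and 21 did not pass, with a median log2 fold change of 0.01. Over all tested genes 13.2% were higher and 11.4% lower, so the share called in this list was near that background. All but 1 of the 8 that passed were transcription factors or repressors of the loop, where 4 of 10 tested were higher and 3 lower. Cry2 was among the loop genes that did not pass (log2 fold change 0.09 ± 0.07 SE, edgeR adjusted p = 0.379). None of the 8 tested kinase and ubiquitin ligase genes passed in edgeR, where log2 fold changes ran from -0.11 (Csnk1e, casein kinase 1 epsilon, edgeR adjusted p = 0.0534) to 0.01 (Csnk1d, casein kinase 1 delta). None of the 7 coregulator genes passed in edgeR either, with Sirt1 the farthest from 0 at -0.06 ± 0.04 (SE). Before adjustment the edgeR p was under 0.05 for 3 of those 8 and 0 of those 7 genes. DESeq2 called 2 of the 8, with Csnk1e among them, and 0 of the 7, and limma-voom called 0 in either list.

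**Figure D4:**
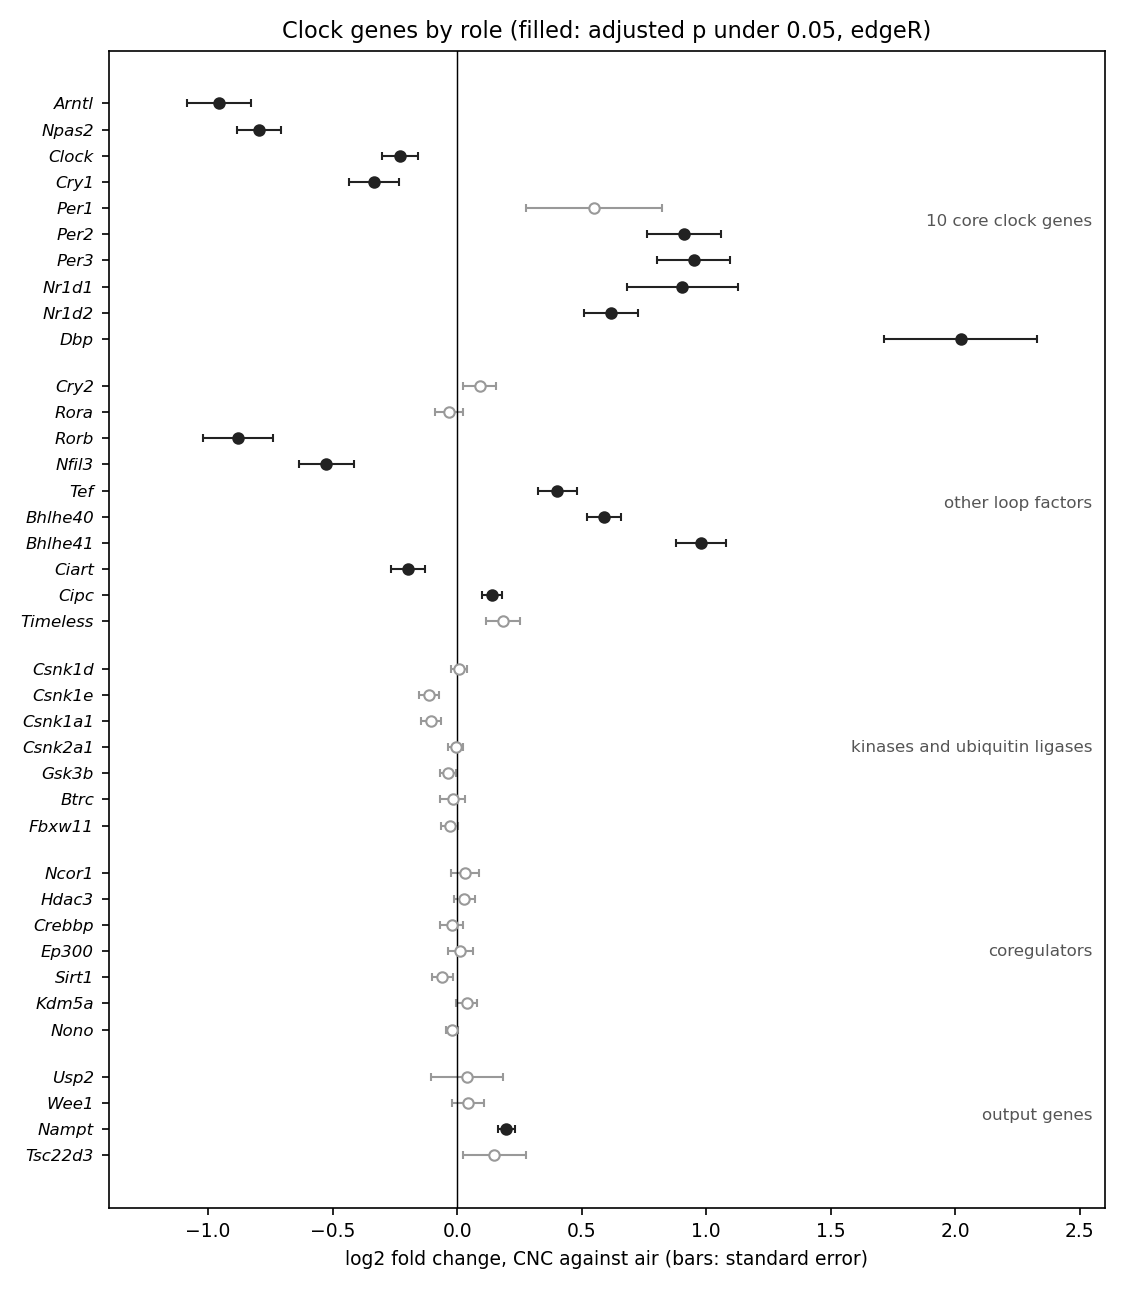
Log2 fold change, CNC against air, with its standard error from edgeR, for the 10 clock genes and the tested genes of the wider pathway except 1 that is not shown, grouped by role. Filled points passed at an adjusted p under 0.05. The 10 clock genes and the loop factors hold all but 1 of the filled points, and the kinase, ubiquitin ligase and coregulator genes lie close to 0.

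Bhlhe41 and Bhlhe40 encode DEC2 and DEC1, repressors that bind E-boxes against BMAL1. Bhlhe41 ran from 22.8 through 30.9 to 35.8 CPM in air and from 50.3 through 57.7 to 70.2 CPM in CNC, without overlap. It rose 1.97-fold (log2 fold change 0.98 ± 0.10 SE, edgeR adjusted p = 6.2e-06). Bhlhe40 ran from 35.99 through 42.8 to 46.9 CPM in air and from 53.1 through 64.6 to 68.2 CPM in CNC, and rose 1.505-fold (log2 fold change 0.59 ± 0.07 SE, edgeR adjusted p = 1.99e-05). Unlike Dbp, neither gene had air replicate 4 as its highest air rat.

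Tef, a D-box activator of the same family as Dbp, rose 1.32-fold, from 120.0 ± 13.8 to 158 ± 17.3 CPM (SD, n = 6 per group, edgeR adjusted p = 0.00148), and air replicate 4 was again the highest air rat, at 146.8 CPM. Nfil3, which encodes the repressor that competes at D-boxes and is itself repressed by REV-ERB, fell 1.44-fold, from 10.3 ± 1.24 to 7.12 ± 1.04 CPM (edgeR adjusted p = 0.00235). Rorb, a ROR family receptor, had few reads, 12 to 35 counts per library, and dropped 1.84-fold from 2.096 to 1.14 CPM without overlap (edgeR adjusted p = 0.000289). Its relative Rora, an activator at ROR elements, had a log2 fold change of -0.03 ± 0.05 (SE, edgeR adjusted p = 0.722).

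Ciart, whose promoter window with 3 E-boxes is printed above, went the other way from Dbp. It ran from 38.5 through 43.5 to 47.5 CPM in air and from 32.8 through 38.6 to 41.6 CPM in CNC, with overlap. It fell 1.15-fold (log2 fold change -0.20 ± 0.07 SE, edgeR adjusted p = 0.0477). The Ciart call ended without a count filter and without air replicate 1, 2, 3 or 6 or CNC replicate 1, 2 or 5 in turn (edgeR adjusted p from 0.0739 to 0.117 without those rats). Cipc, which encodes another inhibitor of CLOCK, rose 1.10-fold, from 45.4 ± 1.34 to 50.01 ± 2.48 CPM (edgeR adjusted p = 0.0165).

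Of 4 tested clock output genes 1 passed, where 24.6% of all tested genes did. It was Nampt, which encodes an enzyme of NAD synthesis and rose 1.15-fold, from 90.7 ± 1.83 to 104 ± 4.92 CPM with no overlap (SD, n = 6 per group, edgeR adjusted p = 0.000565). Usp2, a deubiquitinase gene, averaged 7.51 ± 1.64 CPM in the air rats and 7.77 ± 1.27 after CNC, and Wee1, a cell cycle kinase gene, 19.3 ± 0.825 and 19.8 ± 1.87 CPM. Tsc22d3, an output gene that glucocorticoid also induces, was 123 ± 15.2 and 136 ± 32.6 CPM. These 3 did not pass.

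Glucocorticoid and temperature cues reset clocks in the body, so genes that follow them are given beside the clock genes. Of 9 glucocorticoid-responsive genes, Per1 and Tsc22d3 included, 0 were higher and 1 was lower, where 13.2% and 11.4% of all tested genes were. Zbtb16, the one that fell, was at 57.7 CPM in air replicate 4, at 8.12 to 29.8 CPM in the other air rats and at 6.66 to 14.7 CPM in CNC. Its log2 fold change of -1.26 ± 0.44 (SE, edgeR adjusted p = 0.0493) became -0.75 without that rat (edgeR adjusted p = 0.146), and the call ended in 14 of 22 alternative settings. Fkbp5, a classical glucocorticoid target, had a log2 fold change of 0.18 ± 0.08 (SE, edgeR adjusted p = 0.0975).

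Of 7 tested temperature-responsive genes 1 rose and 1 fell, against 24.6% of all tested genes called in either direction. The cold-inducible RNA-binding protein genes Cirbp and Rbm3 moved apart. Cirbp fell from 146.5 ± 9.70 to 128.5 ± 8.92 CPM (SD, n = 6 per group, edgeR adjusted p = 0.0136). Rbm3 rose from 190 ± 16.1 to 220 ± 19.3 CPM (edgeR adjusted p = 0.0221), a call that ended without air replicate 2 or CNC replicate 4 (edgeR adjusted p from 0.0531 to 0.0552). The part of these cues in the clock gene changes was not tested.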

How the data were processed

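Lung RNA of 12 rats, 6 per group, was sequenced. Per the labels' protocols, strand-marking libraries of polyadenylated RNA were made and amplified over 12 PCR cycles. Tools listed, with no role stated, in the submitters' processing notes were HTSeq 0.11.2, HISAT2 2.1.0, SAMtools 1.8, Trimmomatic 0.35, bcl2fastq 2.19 and Cufflinks. Annotation and strand setting: not given in the sources used here. The authors deposited raw counts per gene symbol, 1 column per rat, with no normalization and a rat Rnor6 build in the table's name. Libraries held 8693259 to 16603697 counts, and the 10 genes held 93 to 3335 counts per library. Amplified reads are not independent molecules.

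The tests ran in edgeR 4.0.16 under R 4.3.3: filterByExpr (minimum count 10, minimum total 15), TMM scaling, then glmQLFit and glmQLFTest, CNC against air, with Benjamini-Hochberg adjustment over all tested genes. The standard error is the size of the log2 fold change divided by the square root of F. Log2 CPM used a prior count of 2. On simulated data of 14933 genes for this comparison, 46, 78, 96 and 98% of genes changed 1.25-, 1.5-, 2- and 4-fold were recovered. Only 50 genes, drawn at random, were changed at each fold, where 3691 genes were called in the real data. The shares were not worked out for genes as variable between rats as Dbp or Per1. Alternatives used DESeq2 1.42.0, limma 3.58.1 and other settings. All 10 genes were named. Of the wider pathway, genes past the threshold were named, and others as examples chosen after their values were seen. The most similar genes were the 5 with the highest Pearson r, at a mean of at least 1 CPM. The genes and lists were chosen with earlier results of these data known. Figures were drawn with matplotlib 3.10.9. Of the kinase and ubiquitin ligase genes, 1 is not reported here by name.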

Additional observations from a re-analysis of the deposited data

Results flagged for a closer look

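In 4 of 46 groups of 6 rats examined, 1 rat lay farther from the rest than the usual limit for its group (Dixon's test at the 95% level). Chance gives about 1 in 20 groups, and the genes are not independent of each other. In every one of the 4 the rat was air replicate 4. It had 34.4 CPM of Arntl, where the other air rats had 50.8 to 56.6 CPM. It had 40.0 CPM of Per2, where the others had 18.2 to 24.0 CPM. It had 34.2 CPM of Dbp, where the others had 9.29 to 13.9 CPM, and 146.8 CPM of Tef, where the others had 108.9 to 119.8 CPM. The log2 fold changes without this rat were -1.05 for Arntl, 1.10 for Per2, 2.49 for Dbp and 0.47 for Tef. Leaving out a rat chosen for lying toward the CNC values moves these fold changes away from 0 by construction.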

How the results depend on the processing

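Over 22 alternative settings (other scalings, filters and tests, a stricter threshold and each rat left out), all 10 clock genes kept their direction, and 7 to 9 of them passed. With each rat left out in turn, 3091 to 3722 genes of the whole table passed, where the fit of all rats gave 3691. The calls of Arntl, Npas2, Per2, Per3, Nr1d1, Nr1d2 and Dbp held in all 22 settings, and those of Clock and Cry1 ended at a threshold of 0.01 as well as without the rats named above. That threshold left 2146 genes of the whole table. The phase difference, CNC minus air, was -1.62, ran from -1.83 to -1.48 with each rat left out, and was -2.45 when Arntl and Npas2 alone were set against Nr1d1 and Dbp. Arntl and Npas2 fell most on the Arntl side and Dbp rose most on the Dbp side, so that choice makes the difference larger. Of the relations with Arntl, 0 passed with DESeq2 size factors, upper quartile scaling or library size alone, and 2 with a prior count of 0.5, and the cause was not tested. No paired analysis was possible because the labels give no number that rats of the 2 groups share. Depth limits Rorb most among the genes called in the wider pathway, at 12 to 35 counts per library.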

Other observations

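The spread of the clock genes between rats of 1 group ran from near the middle of all tested genes to near the top. The SD of log2 CPM within groups was 0.62 for Dbp and 0.58 for Per1, above those of 98.3 and 98.0% of tested genes (percentile ranks), and 0.47 for Nr1d1 at 96.1%. Per2 and Per3 were both at 86.2%, Nr1d2 at 77.4%, Npas2 at 70.5% and Cry1 at 70.2%. It was 0.28 for Arntl at 84.1% and 0.14 for Clock at 59.4%, where the median gene had 0.12.

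After the group mean was taken off each rat, the 12 rats were compared gene by gene, over 12820 genes outside the pathway. Most like Arntl were Clcn5 (r = 0.93), Ssfa2 (0.92), Ankrd13c (0.91), Dennd4c (0.90) and Dmxl2 (0.90), and most like Dbp were Col24a1 (r = 0.93), Zfp777 (0.90), Lgals3bp (0.88), Herpud1 (0.88) and Fam151b (0.88). By the same measure Per3 had r = 0.93 with Dbp and -0.91 with Arntl. These are the highest of many values over few rats, which share library depth, and are a description. Of the 10 genes outside the pathway, Lgals3bp was higher in CNC (248 ± 18.6 CPM, against 196 ± 20.6 CPM in the air rats, SD over 6 rats each, edgeR adjusted p = 0.00115), and the other 9 did not pass. Clcn5 (log2 fold change 0.48 ± 0.23 SE, edgeR adjusted p = 0.152) followed Arntl within groups, while its mean was higher in CNC, where Arntl was lower. The top match of each gene had a low level, near the minimum of 1 CPM. Clcn5 averaged 2.24 CPM in air and 3.11 CPM in CNC, and Col24a1 1.22 and 1.04 CPM.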
